A study of Caenorhabditis elegans with 12 samples.

Results

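Cuticlins and their relatives form the gene set described here: every gene whose symbol is cut, cutl (cuticlin-like) or noah with a number, and that held 10 or more counts over 6 libraries of whole Caenorhabditis elegans. The files list 46903 entries, of which 37 had such a symbol, and 31 of these reached the minimum: 5 cut genes, 25 cutl genes and noah-2. The libraries came from N2 worms, the standard wild-type strain, and all carry an RNAi treatment: 3 with RNAi of y54g2a.18, a homologue of human BCAP31, whose protein sits in the endoplasmic reticulum membrane, and 3 with the RNAi control of the same experiment. The series, which asked how losing this gene or rpoa-49 bears on ageing, holds 12 libraries in 4 groups, and the rpoa-49 experiment was not analysed here. The sources used here do not give age, stage, what the control RNAi consisted of or how many worms were pooled, nor whether replicates were separate cultures. The p-values therefore measure a spread between libraries that may be technical.

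Cuticlins are part of the nematode cuticle, the collagen-rich coat that the epidermis secretes anew at each molt. Most carry a zona pellucida (ZP) domain, a module through which secreted proteins polymerise into filaments, first described in the coat of vertebrate eggs. They were first defined as the cuticle fraction that stays insoluble after collagens are extracted, and some are built into the alae, the longitudinal ridges above the seam cells that mark certain stages. Many genes for cuticle proteins are transcribed in pulses during the molting cycle.

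The targeted gene checked the labels. Y54G2A.18 stood at 190.1, 128 and 90.2 CPM (counts scaled by library size) in the RNAi libraries, against 391, 358 and 409 CPM in the control libraries, with no overlap (log2 fold change -1.51, SE 0.25, edgeR quasi-likelihood adjusted p = 0.00732). Libraries held 30103422 to 38313344 counts with RNAi and 34561881 to 39492584 counts in the controls. The correlation of log CPM between libraries of a group was 0.965 to 0.974 with RNAi and 0.986 to 0.991 in the controls, so the RNAi libraries differed more among themselves. Each worm is a mixture of tissues, and fewer cells of a type cannot be told apart from less RNA per cell. Values listed at 0 also need care. In the Ensembl annotation of the assembly WBcel235, 38.4% of the protein-coding genes with several transcripts were at 0 in every library, against 7.07% of those with 1 transcript, and the ribosomal protein gene rpl-3, which every cell uses, was among the genes at 0. Low values above 0 in genes with several transcripts need the same care. The housekeeping genes eef-2 and tba-1, which are of this kind, held 81 and 111 counts in all, whereas tba-2 and act-4, also of this kind, held 251992 and 20760.

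In the family, the 5 symbols at 0 were noah-1, cut-5, cutl-19, cutl-20 and cutl-26. All of them belong to the 10 family genes with several annotated transcripts, and 0 of the 27 family genes with 1 transcript were at 0. They are therefore reported only as listed at 0. cut-5, which is needed for the alae of the first larval stage and the dauer larva, and noah-1, which is needed with noah-2 to hold the embryo's shape, cannot be described from this table. cutl-24 held 9 counts in all, just under the minimum, and cutl-7, just above it, held 26.

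Of the 31 members 29 passed the filter on low counts and were tested; cutl-1 and cutl-7 did not, at means of 0.199 and 0.133 CPM with RNAi and 0.109 and 0.104 CPM in the controls. After y54g2a.18 RNAi 5 members fell and 1 rose. The 5 that fell were noah-2, cut-4, cutl-18, cutl-28 and cutl-6, each to between 0.328 and 0.430 of its control level, and the 1 that rose was cut-1, at 84.0 times its control level. A gene was called at a Benjamini-Hochberg adjusted p of 0.05 over all 14290 genes tested. Of all those genes 5.01% were called lower, 3.97% higher and 8.98% in either direction, while of the members 17.2% were called lower, 3.45% higher and 20.7% in either direction. Over the alternatives in normalization, filter and test, and with each library left out, 2 to 7 members were called lower. The number was 2 (cut-4 and cutl-18) when control replicate 1, 2 or 3 was left out, and 7 without RNAi replicate 2. Of all tested genes 2.9 to 3.0% were called lower in the former settings and 5.16% in the latter. With DESeq2, and with ribosomal RNA share added as a covariate, 7 members were also called lower, beside 6.62% and 8.16% of all tested genes.

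noah-2 was the most abundant member. It encodes a large ZP protein related to Drosophila NompA and belongs to the apical matrix that covers the epidermis of the embryo and of molting larvae. The gene stood at 30.999, 78.7 and 46.3 CPM in the RNAi libraries, against 119, 136 and 108 CPM in the control libraries. The groups did not overlap, RNAi replicate 2 lay nearest to the controls, and the RNAi libraries differed among themselves by more than the control libraries did. The means were 52.0 ± 24.4 CPM with RNAi and 121 ± 14.2 CPM in the controls (SD, n = 3 in each group), with a log2 fold change of -1.22 (SE 0.30, edgeR adjusted p = 0.0432). This call lay close to the threshold. It was lost with scaling to total counts (adjusted p = 0.0512), without RNAi replicate 3 (0.104) and without control replicate 1, 2 or 3 (0.114, 0.144 and 0.0953).

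cut-4 and cutl-18 were called lower in every one of 16 alternatives, with adjusted p up to 0.0432 for cut-4 and 0.0220 for cutl-18. cut-4, a cuticlin gene with a ZP domain, had 6.34, 9.34 and 5.88 CPM after RNAi, against 17.5, 18.5 and 16.2 CPM in the controls. Its libraries were close together in both groups, at 7.18 ± 1.88 CPM with RNAi and 17.4 ± 1.1602 CPM in the controls (SD, n = 3), and its log2 fold change was -1.28 (SE 0.22, edgeR adjusted p = 0.00805). cutl-18 had the lowest fold change of the members. Single libraries held 3.71, 4.49 and 5.48 CPM after RNAi, against 14.04, 16.8 and 10.95 CPM in the controls, and again the groups stayed apart. Its log2 fold change was -1.61 (SE 0.23, edgeR adjusted p = 0.00386).

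The remaining calls were in cutl-28 and cutl-6, for which the files and the annotation give a name only. cutl-28 had 1.69, 3.62 and 3.92 CPM in RNAi worms, against 8.20, 9.59 and 7.68 CPM in control worms. The groups did not overlap, RNAi replicate 1 was the lowest, and the log2 fold change was -1.47 (SE 0.31, edgeR adjusted p = 0.0210). The call was lost without control replicate 1, 2 or 3 (adjusted p = 0.0686, 0.0865 and 0.0598). cutl-6 was much rarer, with 12, 12 and 17 counts in the RNAi libraries, against 35, 58 and 35 counts in the control libraries. In CPM that was 0.328, 0.319 and 0.529 with RNAi, against 0.908, 1.45 and 1.05 in the controls, a log2 fold change of -1.54 (SE 0.37, edgeR adjusted p = 0.0359). Its call rested on few counts and was lost without RNAi replicate 1 or 2 (adjusted p = 0.0593 and 0.0907) and without control replicate 1, 2 or 3 (0.0797, 0.170 and 0.104). Exons of cutl-6 share 14 bases with nuo-6 on the other strand, a gene with 72984 counts in all, and the sources used here do not say whether the counting used strand.

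cut-1 moved the other way. It encodes the first cuticlin described in this worm, a component of the dauer cuticle beneath the alae, and in control worms it was nearly silent. The RNAi libraries held 336, 94 and 946 counts, against 10, 2 and 6 counts in the control libraries. Every RNAi library was far above every control library, but the RNAi libraries also lay far apart from one another. As CPM the values were 9.18, 2.5 and 29.4 with RNAi, against 0.259, 0.0498 and 0.180 in the controls, and the means were 13.7 ± 14.03 CPM with RNAi and 0.163 ± 0.106 CPM in the controls (SD, n = 3). The log2 fold change was 6.38 (SE 1.02, edgeR adjusted p = 0.00605), the 14th highest of the 14290 tested genes. It was 5.15 without RNAi replicate 3 and the call was kept (adjusted p = 0.00541), while limma-voom did not call the gene (log2 fold change 5.88, adjusted p = 0.0722). Per kilobase of coding sequence cut-1 took place 6 among the 31 members after RNAi, at 10.8 ± 11.03 CPM, and place 28 in the controls, at 0.128 ± 0.0832 CPM (SD, n = 3). Without RNAi replicate 3 its level after RNAi was 4.59 CPM per kilobase and its place 9.

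**Figure D1:**
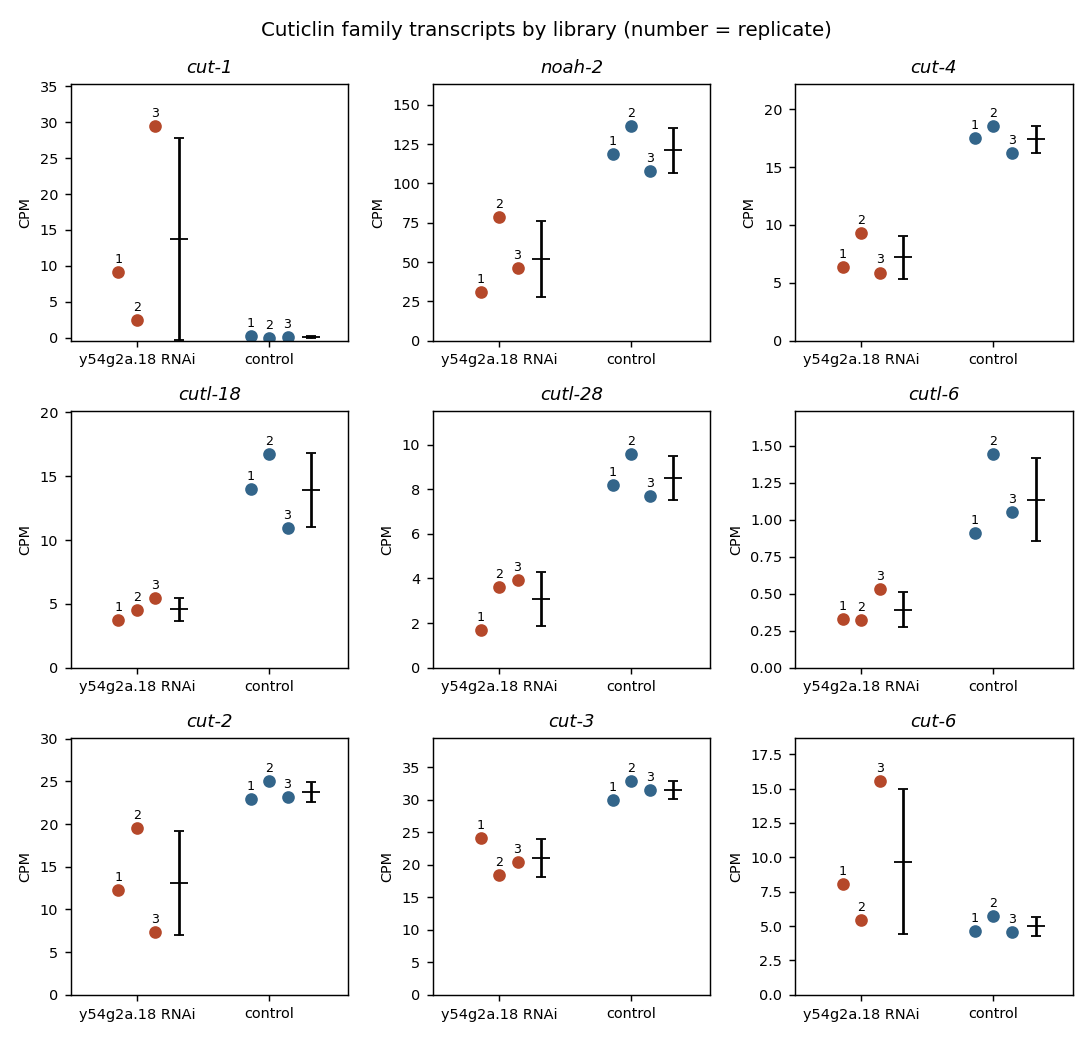
CPM (vertical axes) of 9 family genes in each library, RNAi at left and control at right, where numbers are replicates and the bar beside each group is the mean ± SD of 3 libraries. The RNAi and control libraries of cut-6 overlap, and cut-1 spreads from 2.5 to 29.4 CPM with RNAi.

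cut-6, the other cut gene with a higher mean, acts in the body shape and alae of the dauer larva. It had 8.03, 5.43 and 15.6 CPM with RNAi, against 4.62, 5.76 and 4.56 CPM in the controls. RNAi replicate 2 lay inside the control range and replicate 3 was far above it, and the difference did not pass the test (log2 fold change 0.96, SE 0.36, edgeR adjusted p = 0.154). Without RNAi replicate 3 the log2 fold change was 0.43 and without RNAi replicate 2 it was 1.24 (adjusted p = 0.33 and 0.0508). The RNAi libraries stood in the same order for cut-6 as for cut-1, with replicate 3 highest and replicate 2 lowest.

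cut-3 and cut-2 had lower means after RNAi without passing the threshold. cut-3 contributes to the alae of the first larval stage. Its libraries held 24.2, 18.5 and 20.4 CPM with RNAi, against 30.04, 32.9 and 31.6 CPM in the controls, and no RNAi library reached the lowest control (log2 fold change -0.58, SE 0.16, edgeR adjusted p = 0.0661). The gene was called lower by DESeq2 (adjusted p = 0.0242), with ribosomal RNA share added as a covariate (0.0190) and without RNAi replicate 1 (0.0191). cut-2 differs from the other cut genes in that its protein has no ZP domain and consists largely of short repeats that can be cross-linked through tyrosines. It had 12.3, 19.5 and 7.41 CPM with RNAi, against 22.9, 25.1 and 23.2 CPM in the controls. All RNAi libraries were below the controls, but they spread widely among themselves, and the log2 fold change was -0.86 (SE 0.31, edgeR adjusted p = 0.143). Without RNAi replicate 2 it was -1.26 and called (adjusted p = 0.0247), and without RNAi replicate 3 it was -0.57 (0.181), so this value depended on which libraries were used.

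The 23 tested cutl genes ranged from log2 fold changes of -1.61 for cutl-18 to 0.57 for cutl-27. cutl-10 came nearest to the threshold among those not called, with 1.78, 2.98 and 1.96 CPM with RNAi against 4.41, 4.16 and 4.02 CPM in the controls (log2 fold change -0.90, SE 0.24, edgeR adjusted p = 0.0572). Its RNAi libraries were all below its controls, and it was called lower by DESeq2 (adjusted p = 0.0178), with the ribosomal RNA covariate (0.0313) and without RNAi replicate 2 (0.0154). cutl-23 and cutl-5 also had every RNAi library below every control library, at 0.205 ± 0.0456 and 0.274 ± 0.0335 CPM with RNAi and 0.448 ± 0.137 and 0.487 ± 0.119 CPM in the controls, levels at which a library holds few counts (edgeR adjusted p = 0.170 and 0.259). cutl-4, cutl-9, cutl-22 and cutl-12 had log2 fold changes of -1.14, -0.75, -0.70 and -0.53 with overlapping libraries and adjusted p of 0.230, 0.320, 0.373 and 0.531. cutl-9 shows the spread behind such values: it had 1.47, 2.87 and 0.809 CPM with RNAi, against 2.96, 3.16 and 2.58 CPM in the controls, and it was called lower without RNAi replicate 2 (adjusted p = 0.0473).

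A set of 11 members lay within 0.5 of 0 on the log2 scale, all with overlapping groups and adjusted p from 0.445 to 0.960. They include abundant members as well as rare ones. cutl-15 had 13.9, 17.8 and 16.03 CPM with RNAi, against 16.9, 16.8 and 15.3 CPM in the controls, and cutl-3 had 11.7, 16.1 and 11.7 CPM with RNAi, against 13.3, 11.1 and 11.4 CPM in the controls. The log2 fold changes were -0.04 (SE 0.17) for cutl-15 and 0.14 (SE 0.20) for cutl-3. The other 9 were cutl-25, cutl-17, cutl-21, cutl-29, cutl-13, cutl-8, cutl-14, cutl-16 and cutl-11. cutl-29 was the least even of them after RNAi, at 7.21, 14.3 and 8.53 CPM, against 11, 12.1 and 12.3 CPM in the controls. cutl-2 and cutl-27, with log2 fold changes of 0.51 and 0.57, had overlapping groups and adjusted p of 0.433 and 0.609.

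**Figure D2:**
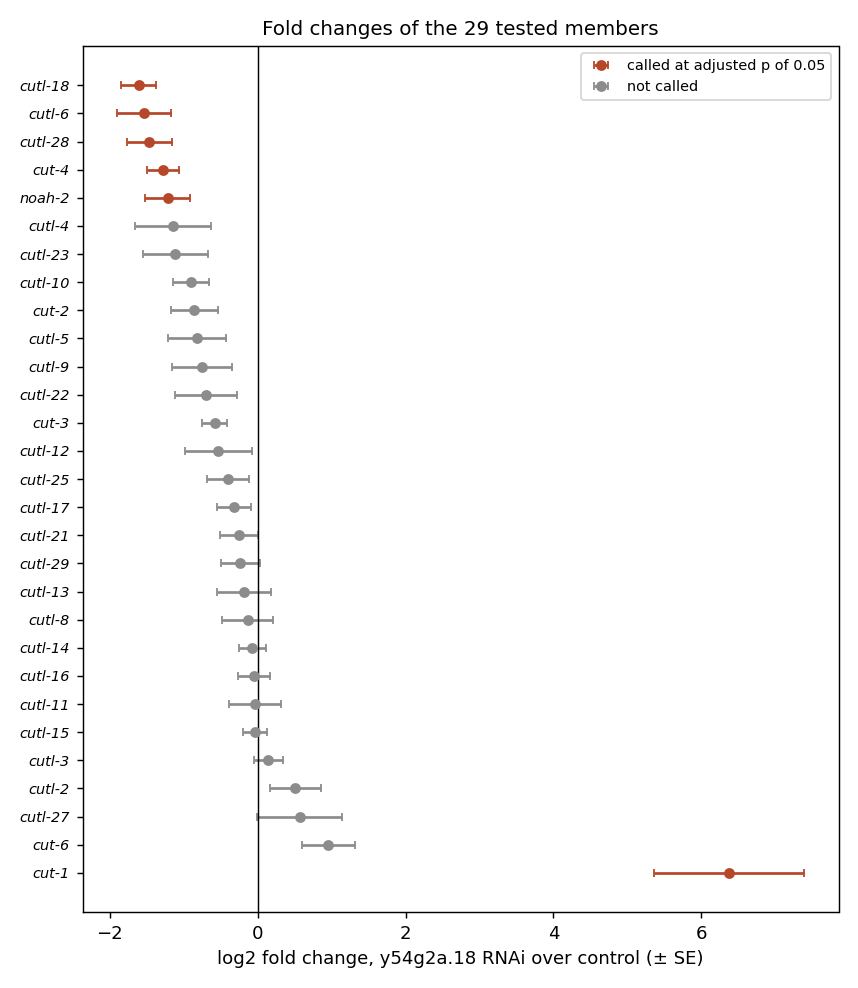
Log2 fold change of y54g2a.18 RNAi over control (horizontal axis, ± SE) for the 29 tested members, ordered from the lowest; red points were called at an adjusted p of 0.05. Values run from -1.61 for cutl-18 to 0.96 for cut-6, with cut-1 apart at 6.38.

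Taking the tested members as a set, 24 had a negative log2 fold change and 5 a positive one, whereas 48.1% of all tested genes were negative. Some of these signs depended on the setting. cutl-11 kept its negative sign in 10 of 16 alternatives, cutl-16 in 13, cutl-14 and cutl-15 in 14, and cutl-8 and cutl-13 in 14 of 15. The positive cutl-3 kept its sign in 15 of 16, and the other members kept theirs wherever they were tested. The median over the members was -0.40 and the median over all tested genes 0.02; with other settings the members' median ran from -0.52 to -0.26. All 3 RNAi libraries lay below all 3 control libraries for 10 members (34.5% of those tested) and above them for 1, against 14.6% and 15.8% of all tested genes. A gene could pass the filter on low counts through the libraries of its higher group alone. cutl-23 did so through its controls (16, 24 and 11 counts, against 9, 8 and 5 counts with RNAi), and cut-1 through its RNAi libraries. cutl-4 and cutl-5, among others, also needed their controls, so for such genes the filter favoured the direction seen. The same filter applied to all tested genes. An unadjusted edgeR p under 0.05 was found for 11 of the 29 tested members, against 3324 of all 14290 tested genes (23.3%). Summed over the 31 members, expression was 198 ± 35.01 CPM with RNAi and 304 ± 22.2 CPM in the controls (SD, n = 3), without overlap between the groups. noah-2 made up 25.4% of this sum on average with RNAi and 39.7% in the controls. Without it the sums were 146 ± 14.6 CPM with RNAi and 183 ± 7.96 CPM in the controls. These sums still hold cut-1, which rose. Of the sum over all 31 members it made up 5.70, 1.09 and 14.4% in the RNAi libraries and 0.055% on average in the controls.

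The RNAi libraries did not move evenly. The median over members of the difference from the control mean, on the scale of log2(CPM + 0.1), was -0.67 in RNAi replicate 1, -0.28 in replicate 2 and -0.42 in replicate 3. Of the 24 members with a negative fold change, 12 were lowest in replicate 1, 7 in replicate 2 and 5 in replicate 3. In replicate 1 noah-2 and cutl-28 stood lowest, in replicate 3 cut-2 and cutl-9 did, and in replicate 2 cutl-9, cutl-12 and cutl-29 were inside or above the range of the controls. Ribosomal RNA, a measure of how well polyadenylated RNA was enriched, made up 0.0937, 1.31 and 2.02% of the RNAi counts and 1.03, 1.64 and 0.214% of the control counts. Its part in these differences was not tested beyond its use as a covariate, under which 1 member was called higher and 7 lower, while the calls over all tested genes went up to 15.5%.

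**Figure D3:**
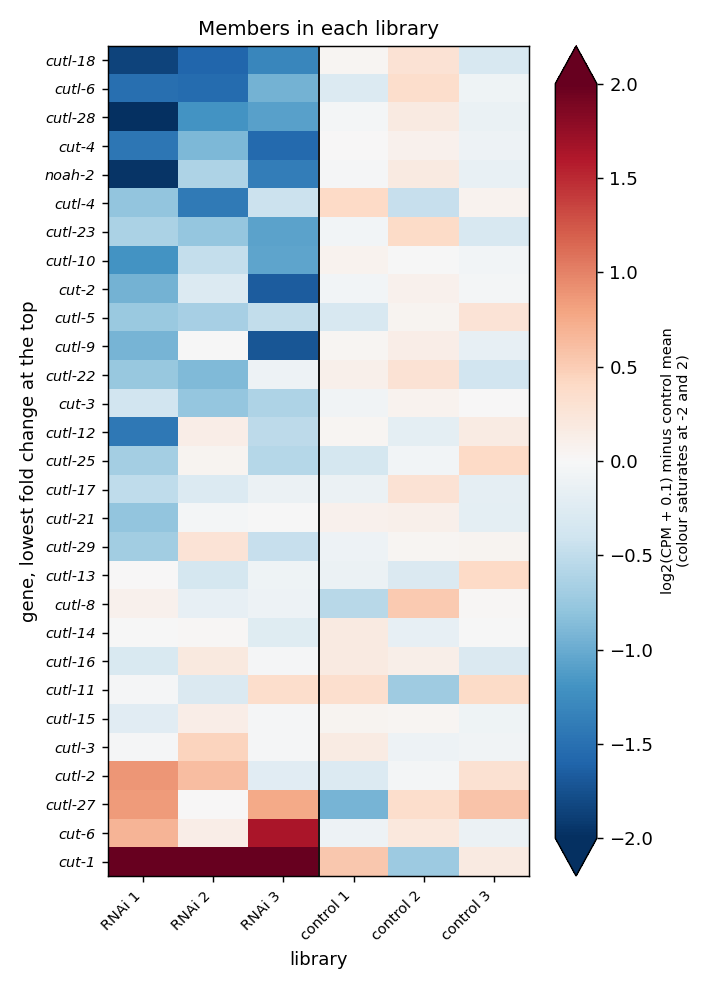
Each of the 29 tested members (rows, lowest fold change at the top) in each library (columns, RNAi left of the line), coloured by log2(CPM + 0.1) minus the mean of the control libraries. The upper rows are blue in all RNAi libraries, the middle rows are near white, and cut-1 in the bottom row lies beyond the colour limit of 2 in all RNAi libraries.

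Levels were compared between genes as CPM per kilobase of coding sequence. In the RNAi worms the order began with noah-2 at 23.4 ± 10.97, cut-2 at 20.3 ± 9.45, cut-3 at 18.0 ± 2.48, cutl-15 at 13.8 ± 1.70 and cutl-3 at 10.8 ± 2.12 (SD, n = 3), so the first 3 did not differ beyond their spread. In the control worms it began with noah-2 at 54.4 ± 6.40, cut-2 at 36.8 ± 1.83 and cut-3 at 27.01 ± 1.24. These stood apart from one another on this scale, and cutl-15 at 14.2 ± 0.762 and cut-4 at 11.5 ± 0.763 followed. The exons of cut-2 span 927 bases, 645 of them coding, and those of cut-3 span 1272 bases, 1167 of them coding. The distance between cut-2 and cut-3 therefore depends on the length used. cut-4 went to place 10 with RNAi, at 4.72 ± 1.23. At the lower end 9 members, cutl-13 and cutl-22 among them, averaged under 1 CPM in both groups. Of these cutl-12, cutl-22 and cutl-23 have several annotated transcripts, as does cutl-8, so their levels and places may be listed too low. The members called lower lie on chromosomes I (cutl-6), II (cut-4), IV (noah-2 and cutl-28) and V (cutl-18), and cut-1 lies on chromosome II. Exons of 10 of the 31 members overlap an exon of another gene with counts, in each case on the opposite strand. The overlap was 0.677 to 4.45% of their length. Of the called members noah-2, cut-4 and cutl-28 have no such overlap. cut-1 shares 66 bases with C47G2.21, which held 2 counts in all, and cutl-18 shares 84 bases with T03F7.7, which held 18.

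Other genes of the same matrix and of the steps that build it were counted in lists chosen with earlier results of these data known. Of 4 further genes for ZP proteins, let-653 and fbn-1 were listed at 0, and dyf-7, which anchors sensory dendrites, and ram-5, which shapes the rays of the male tail, were not called (edgeR adjusted p = 0.953 and 0.463). Neither DESeq2 nor limma-voom called them, and 0 of the 2 reached an unadjusted p of 0.05. Among 9 genes of the precuticle, the transient matrix laid down before each new cuticle, 4 were tested and 1 fell. This was lpr-3, a secreted lipocalin gene, with 10.4, 34.6 and 17.7 CPM in the RNAi libraries against 58.3, 69.7 and 52.0 CPM in the control libraries (log2 fold change -1.52, SE 0.38, edgeR adjusted p = 0.0449). As for noah-2, RNAi replicate 1 was the lowest and replicate 2 the nearest to the controls; the call of lpr-3 was lost in 5 of 16 alternatives, and 0 to 3 of the list were called lower over all of them. The patched-related gene ptr-4 lay just outside the threshold, at 13.8 ± 5.06 CPM with RNAi and 32.4 ± 8.83 CPM in the controls (adjusted p = 0.0510).

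Cuticlins become insoluble through tyrosine cross-links, which peroxidases and dual oxidases form. Of 6 tested genes of this kind 1 fell, the peroxidase gene skpo-2, with 2.38, 5.13 and 4.70 CPM with RNAi against 9.52, 12.3 and 9.33 CPM in the controls (log2 fold change -1.35, SE 0.30, edgeR adjusted p = 0.0250, and up to 0.106 without a control library). The dual oxidase gene bli-3 had overlapping groups, at 6.39, 10.7 and 24.8 CPM with RNAi and 13.3, 16.9 and 8.01 CPM in the controls (adjusted p = 0.907). The peroxidase gene mlt-7, which acts with BLI-3, stood at 32.3 ± 12.7 CPM with RNAi and 19.8 ± 4.76 CPM in the controls (adjusted p = 0.239). The peroxidase gene skpo-1 had all RNAi libraries below all control libraries, at 74.3 ± 12.2 CPM with RNAi and 104 ± 6.47 CPM in the controls (adjusted p = 0.0962). With the ribosomal RNA covariate, and without RNAi replicate 1, 1 gene of the list was called higher. Proprotein convertases cleave many ZP proteins before they assemble. Of 4 such genes bli-4 and kpc-1 were listed at 0, and aex-5 and egl-3 were not called by edgeR, DESeq2 or limma-voom, with 1 unadjusted p under 0.05 and adjusted p of 0.102 and 0.419. Their means were higher with RNAi, and edgeR called both higher without RNAi replicate 1 and 1 of them with the ribosomal RNA covariate.

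Of 6 collagen genes of the annular furrows, the circular grooves of the cuticle, 5 were tested and all of these 5 fell, with a median log2 fold change of -1.87, and their summed level was 223 ± 111 CPM with RNAi and 810 ± 72.1 CPM in the controls (SD, n = 3). dpy-2, dpy-7 and dpy-3 had log2 fold changes of -1.87, -1.88 and -2.04 (edgeR adjusted p = 0.00417, 0.00447 and 0.0120). Without control replicate 1, 2 or 3 the number was 3 each time, with dpy-8 and dpy-10 lost. No test was made of the difference between furrow collagens and cuticlins. Of 5 tested molting genes 2 fell: mlt-8, at 112, 126 and 88.4 CPM with RNAi against 319, 291 and 325 CPM in the controls (log2 fold change -1.52, adjusted p = 0.00105), and nas-7, an astacin protease gene, at 12.8 ± 0.893 CPM with RNAi and 21.9 ± 1.77 CPM in the controls (adjusted p = 0.0204). The call of nas-7 was lost under the replicate block and when any 1 control library was left out, and 1 to 4 molting genes were called lower over the alternatives.

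**Figure D4:**
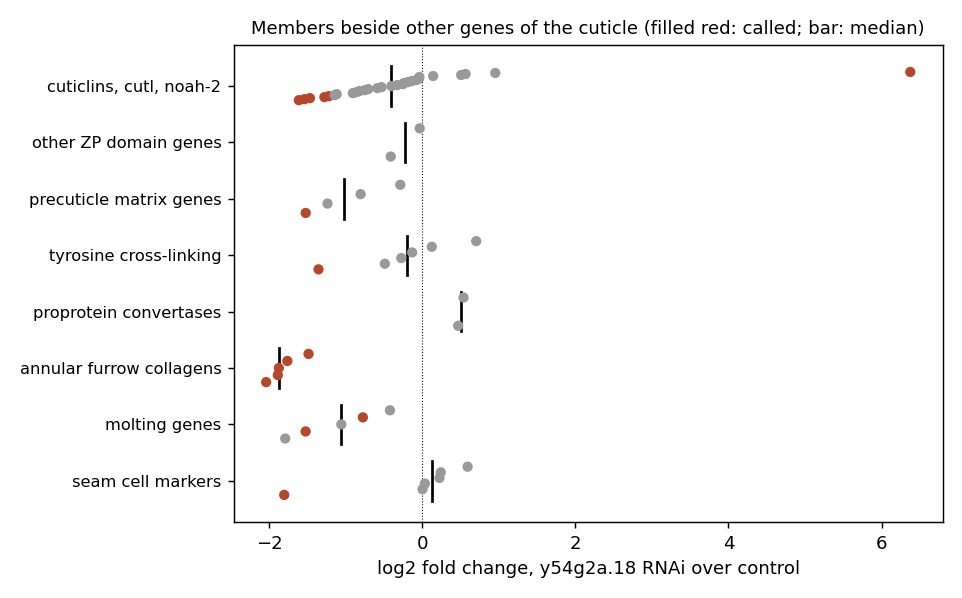
Log2 fold changes of y54g2a.18 RNAi over control (horizontal axis) for the tested cuticlin family and for 7 lists of related genes, 1 point per gene, red where called; the black bar is the median of each row. The family's median is -0.40, that of the furrow collagens -1.87 and that of the seam cell markers 0.13.

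Markers of the tissues that could carry these changes were read in the same fit. The seam cells lie beneath the alae, and of 6 tested seam markers 1 fell, the nuclear receptor gene nhr-73 (0.372 ± 0.140 CPM with RNAi, 1.31 ± 0.164 CPM in the controls, edgeR adjusted p = 0.0158, up to 0.0774 without a control library). The other 5 had log2 fold changes of 0.59 (ceh-16), 0.24 (grd-10), 0.23 (rnt-1), 0.04 (bro-1) and 0.00496 (elt-6), none of them called. ceh-16, a homeobox gene, had every RNAi library above every control library, at 5.69 ± 1.13 CPM with RNAi and 3.77 ± 0.955 CPM in the controls (adjusted p = 0.211). The summed seam list was 186 to 273 CPM with RNAi and 189 to 222 CPM in the controls, with egl-18 listed at 0. Of 10 markers of the hypodermis, the epidermis that secretes most of the cuticle, 4 were tested and 2 fell, the collagens dpy-7 and rol-6. The other 2 were not called: the nuclear receptor gene nhr-25 stood at 0.349 ± 0.191 CPM with RNAi and 0.159 ± 0.179 CPM in the controls (log2 fold change 1.104, adjusted p = 0.474), and che-14 at 4.02 ± 1.64 CPM with RNAi and 7.75 ± 2.40 CPM in the controls (log2 fold change -0.95, adjusted p = 0.141). The hypodermal regulators elt-1, lin-26, grh-1 and blmp-1 were listed at 0, and elt-3 and nhr-23 were under 0.5 CPM in every library. The sum of the hypodermis list, mostly rol-6, was 170 to 371 CPM with RNAi and 943 to 1130.0 CPM in the controls. Among adult cuticle collagens col-19, bli-1 and bli-2 were listed at 0, and col-7 had 13.3, 3.38 and 1.37 CPM with RNAi against 28.05, 28.2 and 29.8 CPM in the controls (adjusted p = 0.0793, called lower in 5 of 16 alternatives, limma-voom and the replicate block among them). The part of these tissues in the cuticlin changes was not tested.

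Markers of other tissues were read too, and in edgeR 0 were called in 4 tested muscle, 6 intestine, 9 germline and oocyte, 8 sperm, 7 embryo and 4 glia genes. Of these, 1, 2, 1, 2, 1 and 1 had an unadjusted p under 0.05. Other edgeR settings did call some: with the ribosomal RNA covariate 1 muscle and 2 sperm genes were higher and 1 germline and 1 glia gene lower. Without RNAi replicate 1, 1 muscle and 1 intestine gene were higher, without RNAi replicate 2, 1 germline gene was lower, and without RNAi replicate 3, 1 sperm gene was higher. Listed at 0 were hlh-1 and lev-11 of the muscle genes, ifb-2 of intestine, pgl-3 of germline, and msp-31, msp-33 and spe-41 of sperm. DESeq2 called 1 glia gene and 0 of the others, and limma-voom called 0. Summed sperm markers were 187 to 346 CPM with RNAi and 175 to 201 CPM in the controls, and summed muscle markers 1490 to 2071 CPM with RNAi and 1206 to 1355 CPM in the controls. Summed intestine markers were 3137 to 4823 CPM with RNAi and 2942 to 3100 CPM in the controls, and germline and oocyte markers 617 to 1070.3 CPM with RNAi and 845 to 1229 CPM in the controls. Embryo markers summed to 3.95 to 7.05 CPM with RNAi and 4.59 to 5.29 CPM in the controls, and glia markers to 19.8 to 41.5 CPM with RNAi and 22.6 to 28.8 CPM in the controls.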

How the data were processed

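Per the labels' protocols, polyadenylated RNA of whole N2 worms was read by Illumina NovaSeq. The deposited values are the authors' unnormalized counts per gene. The submitters' processing notes name HISAT2 2.2.1, DESeq2 1.16.1, featureCounts 1.28.1 and FastQC 0.11.9 with no role. The sources used here give no build, annotation, strand setting or treatment of shared reads, so coordinates are left out. Groups and replicate numbers come from the titles; the title of RNAi replicate 3 spells the target y54g21.18 and was read as y54g2a.18. The 12 entries named as dates were dropped (at most 0.0247% of a library). Chromosomes, coding lengths, overlaps and transcript numbers come from Ensembl release 115 (WBcel235), which holds all members. The rpoa-49 table, which has no member, was not used.

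In R 4.3.3, edgeR 4.0.16 filtered genes with filterByExpr (minimum count 10, minimum total 15), scaled libraries by TMM and fitted a quasi-likelihood model with group as its only term, on all 6 libraries and all genes. CPM is TMM-scaled, fold changes are RNAi over control, and standard errors are the absolute log2 fold change over the square root of F. Of low counts (1 to 20) 71.5% were even, so a count may not stand for 1 independent fragment. Chi-square per degree of freedom between libraries of a group was 24.1 to 181, so none was a duplicate. Members and lists were chosen with earlier results of these data known. Described in full are cut-1 to cut-6, the noah genes, called members, the 3 with most CPM per coding kilobase in a group, and up to 3 called genes per list by p; other genes were chosen after their values were seen. Alternatives were DESeq2 size factors, total counts, upper quartiles, no filter, 1 CPM in 3 libraries, DESeq2 1.42.0, limma-voom (limma 3.58.1), the replicate block, the log ribosomal RNA share as covariate and leaving out each library; using genes with 1 transcript only, and the level of cut-1 without RNAi replicate 3, were chosen after seeing the data. The fit was also run on simulated counts, drawn with the mean levels, gene-wise spread and library sizes that it gave for the real data. It recovered 2, 22, 82 and 96% of genes changed 1.5-, 2-, 4- and 8-fold, with 4 false calls among 105. Members that were not called may therefore still have changed by 1.5- or 2-fold.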

Additional observations from a re-analysis of the deposited data

How the results depend on the processing

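Over 16 alternatives all 9 members described in full kept their direction (15 for cutl-6, which has no value under the 1 CPM filter), and cut-4, cutl-18 and Y54G2A.18 stayed called. limma-voom called 0 members higher, against 1 otherwise, since the adjusted p of cut-1 was 0.0722. Leaving out each library gave 3 to 8 called members, 2 to 7 of them lower, against 6 and 5. The called genes in all were then 646 to 2097 (4.43 to 14.4% of those tested), against 1283 (8.98%). The lowest numbers came without a control library. With the log ribosomal RNA share as covariate 2215 genes were called. DESeq2 called 7 members lower, and of all tested genes it called 6.62% lower and 1772 in either direction. Same-numbered libraries did not deviate together (correlations of 0.0074, 0.0454 and -0.366), so the numbers do not pair them. Libraries of unlike number did in part, with 0.403 for RNAi replicate 3 and control replicate 2 and 0.394 for RNAi replicate 1 and control replicate 3. Deviations were taken from the mean of each group, so positive values bring negative ones with them, such as -0.418 for RNAi replicate 1 and control replicate 2. Ribosomal RNA share was lowest in RNAi replicate 1 and control replicate 3 (0.0937 and 0.214%). It was highest in RNAi replicate 3 and control replicate 2 (2.02 and 1.64%), and its part in these correlations was not tested. With the replicate block 955 genes (6.68% of those tested) and 5 members were called, and cutl-6 was lost (edgeR adjusted p = 0.0826). With genes of 1 transcript only, 6 members were called, beside 1162 of all 10847 tested genes (10.7%). Members under 1 CPM hold few counts, which limits what could be called there.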
